A study of Rattus norvegicus with 4 samples.

Results

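The genes described here are 10 inhibitors that restrain mitogen-activated protein kinase signalling: the dual-specificity phosphatases Dusp1, Dusp4, Dusp5, Dusp6 and Dusp10, the Sprouty proteins Spry1, Spry2 and Spry4, and the Sprouty-related proteins Spred1 and Spred2. They were taken by gene name from the deposited list of open reading frames (ORFs), using the coding ORF of each gene that the list classes as annotated and, if there were several, the one with most footprints summed over the libraries. Each of the 10 genes had 1 such ORF, out of 13694 genes with an annotated ORF, and all 10 passed the filter on low counts. The cells were ventricular cardiomyocytes of Sprague-Dawley rats at postnatal day 2, with no genetic change named in the labels. They were grown in serum-containing medium after a plating step against other cell types, and either left untreated (Control, 2 libraries) or exposed to phenylephrine (PE), an agonist of α1-adrenergic receptors, at 20 µM for 24 h (PE, 2 libraries). The readout was ribosome profiling: RNA fragments covered by ribosomes were counted on each ORF, so a value reflects both the amount of mRNA and its translation, which cannot be told apart without RNA-seq, not analysed here. Whether the replicates are separate cultures is not stated in the labels. The spread behind each p-value is that between these libraries and may be technical.

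Extracellular signal-regulated kinase (ERK), c-Jun N-terminal kinase (JNK) and p38 are activated by phosphorylation of a threonine and a tyrosine, and dual-specificity phosphatases switch them off by removing both phosphates. Sprouty and Spred proteins act upstream, where they limit activation of Ras and Raf by growth factor receptors. Many of these inhibitors are themselves induced by ERK activity and so form a negative feedback loop, and α1-adrenergic receptors of cardiomyocytes signal through Gq to ERK during hypertrophic growth.

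The libraries held 11446574 to 13827599 footprints on listed ORFs. Values below are counts per 1000000 footprints of the library (CPM), after adjusting library sizes with TMM factors. The labelled cell type was checked with marker genes: 10 of 12 cardiomyocyte markers were in the ORF list and all 10 had footprints, with a summed level of 62432 to 62688 CPM in Control and 57526 to 57948 CPM in PE. Markers of other cell types were present too. All 11 fibroblast markers had footprints, summing to 34693 and 34963 CPM in Control and 21073 and 21308 CPM in PE, a ratio of 0.608. Endothelial markers (7 of 8 with footprints) summed to 263 to 271 CPM in Control and 173 to 182 CPM in PE. Macrophage and leukocyte markers (7 of 9 with footprints, Cd163 at 0) summed to 461 to 479 CPM and 319 CPM. Epicardial markers (5 of 5) summed to 185 to 201 CPM and 130 to 132 CPM, and smooth muscle and pericyte markers (9 of 9) to 2591 to 2630 CPM and 2681 to 2721 CPM. By gene, 7 of the 10 tested cardiomyocyte markers, 7 of 10 fibroblast markers and 7 of 9 smooth muscle and pericyte markers fell. In these 3 lists 2, 1 and 2 markers rose. Of endothelial markers 4 of 7 fell, of macrophage and leukocyte markers 5 of 7, and neither list had a rise. Of 5 epicardial markers 2 fell and 1 rose. Over all tested genes 22.8% were called lower and 22.3% higher. Fewer cells of a type and less RNA per cell cannot be told apart in such bulk libraries, and the part of other cell types in the results below was not tested.

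Sequence upstream of the genes was available from RefSeq (rat build GRCr8) for 9 of the 10 genes, all but Dusp4. Stretches of the Dusp1 and Dusp5 promoters are shown because only these, among the 9, held a full match to a classical response element of early-induced genes in the 250 bases before the RefSeq start. In the Dusp1 stretch (GRCr8 chr10:17184661-17184756, plus strand, from 192 to 97 bases before the start) capitals mark the short core (TGACG) of a cAMP response element and the full palindromic element (TGACGTCA). In the Dusp5 stretch (GRCr8 chr1:262543672-262543731, plus strand, from 102 to 43 bases before the start) capitals mark a pair of adjoining CArG boxes, the sequence bound by serum response factor.

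Dusp1: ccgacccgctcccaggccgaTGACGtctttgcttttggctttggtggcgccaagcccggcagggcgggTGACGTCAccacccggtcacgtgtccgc

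Dusp5: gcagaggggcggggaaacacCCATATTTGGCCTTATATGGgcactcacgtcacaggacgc

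Both strands were searched for 7 motifs. The full cAMP response element occurred in 1.59% of 33469 RefSeq promoter windows of the same length and the CArG box in 1.5%. The core, which is contained in the full element, was more common (18.2% of windows) and was also found before Dusp5, Spry2 and Spred2. None of the 9 genes had a match to an AP-1 site (TGANTCA, 6.34% of windows), an ETS site (CCGGAAG, 7.27%) or a TATA box (TATAAA, 12.9%), while a GC box (GGGCGG, 30.5%) lay before each of them except Dusp6. Spry2 had 2 RefSeq windows, and all of its matches lay in the same window. A match is only a description of the letters, and other promoter or intronic sequence was not searched.

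After PE, footprints rose on 6 of the 10 genes: the phosphatases Dusp4 (2.07-fold), Dusp6 (1.88-fold), Dusp1 (1.44-fold) and Dusp5 (1.33-fold) and the Sproutys Spry2 (1.56-fold) and Spry4 (1.55-fold). None fell. The other 4, Dusp10, Spry1, Spred1 and Spred2, did not pass the test. Calls are those of edgeR's quasi-likelihood test of PE against Control with Benjamini-Hochberg adjustment over all 12609 ORFs tested and a threshold of 0.05. Of the 11286 genes with a tested annotated ORF, 22.3% were called higher and 22.8% lower by the same rule. Both PE libraries lay above both Control libraries in 8 of the 10 genes, against 34.5% of all tested genes. The median log2 fold change was 0.46 over the 10 genes and -0.01 over all tested genes. As the genes were chosen with earlier results in view, these counts describe them and carry no test of their own.

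**Figure D1:**
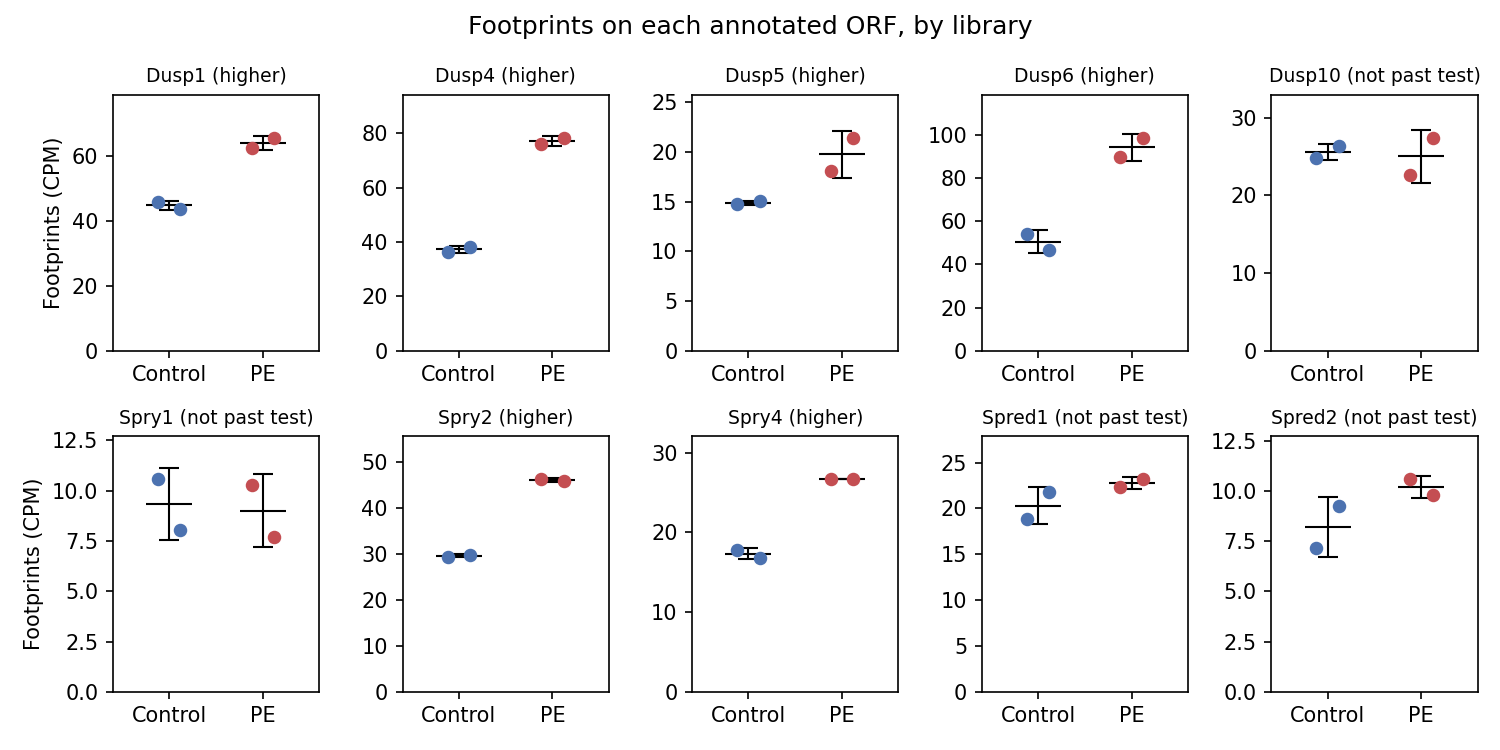
Footprints on the annotated ORF of each of the 10 genes in CPM (y axis, starting at 0 and scaled per gene) in the 2 Control and 2 PE libraries (points), with mean and SD (bars). The groups overlap for Dusp10 and Spry1 and are apart for the other 8 genes, although Spred1 and Spred2 did not pass the test.

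Dusp4, a nuclear phosphatase that acts on ERK and JNK (Rnor_6.0 chromosome 16, 61080767 to 61090973, minus strand), showed the strongest response of the 10. Its footprints measured 36.2 and 38.3 CPM in the Control libraries and 75.9 and 78.4 CPM in the PE libraries. The PE libraries were thus close to each other and about as far above Control as the Control level itself. The log2 fold change was 1.05 ± 0.07 (SE; edgeR adjusted p = 1.0e-14), higher than in 96.9% of tested genes.

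Dusp6, a cytoplasmic phosphatase with high selectivity for ERK (chromosome 7, 41475596 to 41478217), had the highest level of the family. It measured 54.2 and 46.8 CPM in Control and 89.7 and 98.8 CPM in PE. The replicates of each group differed by several CPM, but the lower PE library was well above the higher Control library. Its log2 fold change was 0.91 ± 0.07 (SE; edgeR adjusted p = 4.4e-13).

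Dusp1, an early-induced nuclear phosphatase of p38, JNK and ERK (chromosome 10, 16970782 to 16972742) and the gene with the full cAMP response element printed above, measured 45.8 and 43.6 CPM in Control and 62.6 and 65.6 CPM in PE. The groups were clearly apart, with a smaller difference than for Dusp4 and Dusp6. The log2 fold change was 0.52 ± 0.07 (SE; edgeR adjusted p = 1.0e-07), and its 95% confidence interval, 0.38 to 0.66, did not overlap those of Dusp4 (0.91 to 1.18) and Dusp6 (0.77 to 1.04). The difference between the genes was not tested itself.

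Dusp5, a nuclear phosphatase of ERK (chromosome 1, 274245358 to 274257505) with the paired CArG boxes, was the least abundant phosphatase in Control. It measured 14.7 and 15.0 CPM in Control and 18.0 and 21.4 CPM in PE. The Control libraries were nearly equal, and the size of the increase depended on the PE library. Its log2 fold change was 0.41 ± 0.12 (SE; edgeR adjusted p = 0.0069). The call was lost without PE replicate 2 (0.28, edgeR adjusted p = 0.16) and with DESeq2 (0.41, adjusted p = 0.099). In the authors' deposited table Dusp5 had an adjusted p of 0.0995.

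Dusp10, which prefers p38 and JNK over ERK (chromosome 13, 104286847 to 104320356), measured 24.9 and 26.4 CPM in Control and 22.6 and 27.4 CPM in PE. The Control values lay between the PE values. A log2 fold change of -0.03 ± 0.10 (SE; edgeR adjusted p = 0.83) was estimated, with a 95% confidence interval from -0.25 to 0.18, so an increase of the size seen for Dusp1 lay outside the interval.

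**Figure D2:**
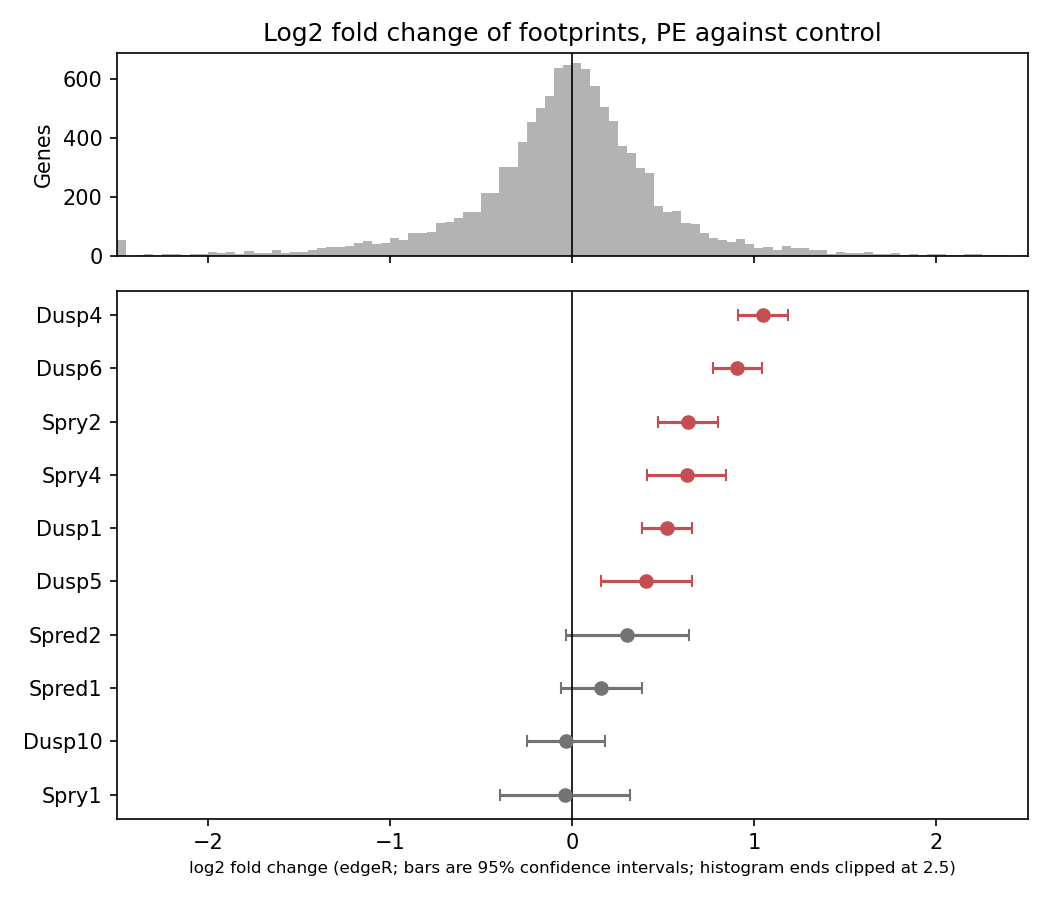
Log2 fold change of PE against Control (x axis) for the 10 genes, with 95% confidence intervals (lower panel; red past the test, grey not), below a histogram of the same quantity for 11286 tested genes (y axis, number of genes; values beyond 2.5 drawn at the ends). Dusp4 at 1.05 and Dusp6 at 0.91 lie in the upper tail of the histogram, while Dusp10 and Spry1 lie near 0.

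Among the Sproutys, Spry2, an inhibitor of Ras and ERK activation downstream of growth factor receptors (chromosome 15, 90173623 to 90174567, minus strand), was the most abundant. It measured 29.3 and 29.8 CPM in Control and 46.3 and 45.8 CPM in PE. Replicates differed by less than 1 CPM in either group, and the groups were far apart by comparison. The log2 fold change was 0.64 ± 0.08 (SE; edgeR adjusted p = 6.2e-08).

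Spry4, which also restrains Ras activation (chromosome 18, 32605407 to 32606309), measured 17.8 and 16.8 CPM in Control and 26.7 CPM in both PE libraries. Its log2 fold change of 0.63 ± 0.11 (SE; edgeR adjusted p = 1.0e-05) was almost the same as that of Spry2.

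Spry1 (chromosome 2, 124403328 to 124404269), another inhibitor of the same kind, measured 10.6 and 8.05 CPM in Control and 10.3 and 7.71 CPM in PE. The groups overlapped almost entirely. Only 95 to 123 footprints were counted on it per library, and the log2 fold change of -0.04 ± 0.17 (SE; edgeR adjusted p = 0.88) had a wide 95% confidence interval, from -0.40 to 0.32. The intervals of Spry2 (0.47 to 0.80) and Spry4 (0.41 to 0.84) lay above it. The difference between Spry1 and the other Sproutys was not tested itself.

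The Spred proteins bind the Ras GTPase activator neurofibromin and bring it to the membrane. Spred1 (chromosome 3, 108795337 to 108857358) measured 18.8 and 21.7 CPM in Control and 22.3 and 23.2 CPM in PE. The groups did not overlap, but the gap was small against the spread in Control. The log2 fold change was 0.16 ± 0.11 (SE; edgeR adjusted p = 0.25), with a 95% confidence interval from -0.06 to 0.38. Spred2 (chromosome 14, 104250816 to 104290393) measured 7.14 and 9.26 CPM in Control and 10.6 and 9.82 CPM in PE. Again both PE libraries were the higher ones, with a log2 fold change of 0.30 ± 0.17 (SE; edgeR adjusted p = 0.14) and an interval from -0.03 to 0.64. Without Control replicate 2 the value was 0.51 and just passed (edgeR adjusted p = 0.048), and without Control replicate 1 it was 0.14.

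In the authors' deposited table, made with DESeq2, the log2 fold changes were 1.05 for Dusp4, 0.90 for Dusp6, 0.64 for Spry2, 0.63 for Spry4 and 0.52 for Dusp1, each with a larger standard error (0.10 to 0.16) than from edgeR.

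Levels of different genes were compared per kilobase of ORF. In Control the order was Dusp6 (44.2 ± 4.58 CPM per kb; SD, n = 2), Dusp1 (40.6 ± 1.39), Dusp4 (31.4 ± 1.22), Spry2 (31.4 ± 0.332), Spry4 (19.2 ± 0.783), Dusp10 (17.7 ± 0.732), Spred1 (15.2 ± 1.53), Dusp5 (12.9 ± 0.197), Spry1 (9.92 ± 1.91) and Spred2 (5.84 ± 1.07). Dusp6 and Dusp1 overlapped in their libraries, as did Dusp4 and Spry2, while the other neighbours in this order did not. These were moderate levels: Dusp6 stood above 75.9% of tested genes in density and Spred2 above 28.7%.

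After PE the density of Dusp6 was 82.5 ± 5.64 CPM per kb and that of Dusp4 65.1 ± 1.50, now above Dusp1 at 58.2 ± 1.96. Spry2 followed at 48.9 ± 0.358 and Spry4 at 29.7 ± 0.0108. Dusp10 (17.3 ± 2.35), Dusp5 (17.1 ± 2.08) and Spred1 (17.1 ± 0.489) overlapped in their libraries, and Spry1 (9.58 ± 1.93) and Spred2 (7.28 ± 0.394) remained lowest. Dusp4 and Dusp1 exchanged places between the groups without overlap of their libraries in either. Within the 5 phosphatases, Dusp4 took 21.4% of the summed density in Control and 27.1% in PE, Dusp6 30.1% and 34.3%, and Dusp10 12.1% and 7.19%. Within the 3 Sproutys, the share of Spry1 was 16.3% in Control and 10.8% in PE.

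**Figure D3:**
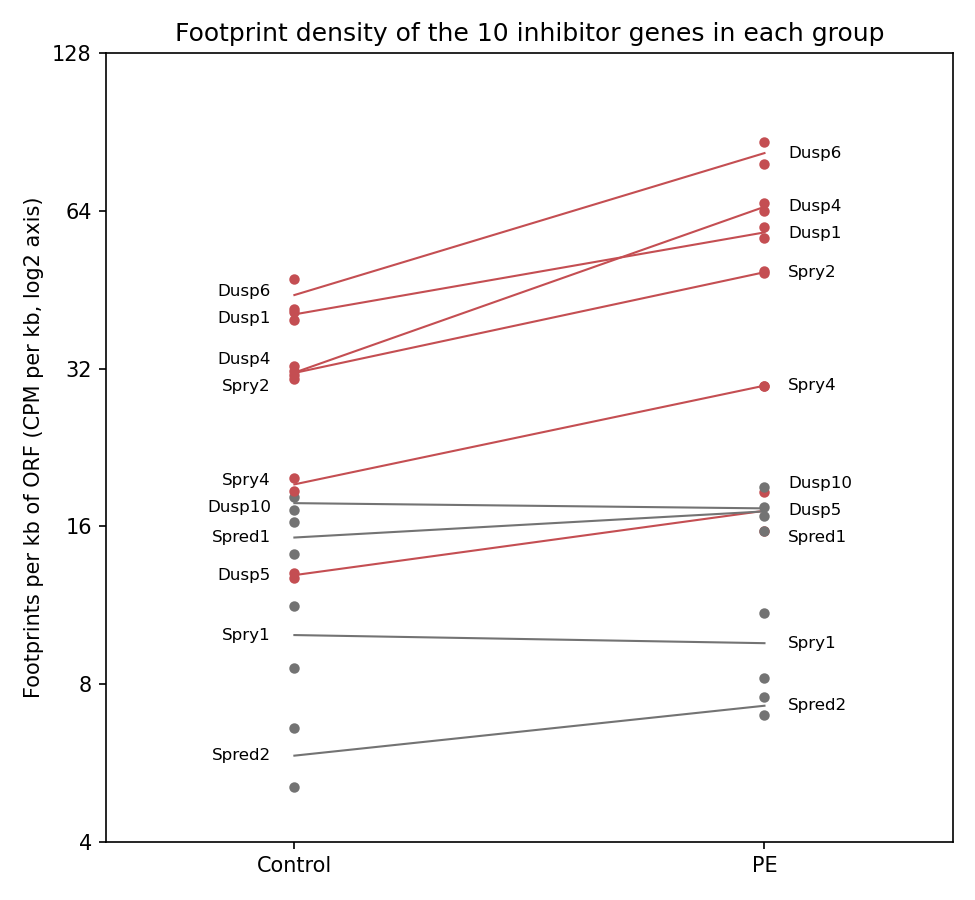
Footprints per kilobase of ORF (y axis, CPM per kb, log2 axis) in Control and PE. Points are libraries and lines join group means (red past the test, grey not); the line of Dusp4 crosses that of Dusp1, and Dusp5 reaches the level of Dusp10 and Spred1.

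Summed over the phosphatases, footprints measured 176 and 170 CPM in Control and 269 and 292 CPM in PE, 1.62 times the Control mean. The Sprouty sum was 57.7 and 54.7 CPM in Control and 83.3 and 80.2 CPM in PE, a ratio of 1.45. The Spred sum was 26.0 and 31.0 CPM in Control and 32.9 and 33.0 CPM in PE, a ratio of 1.16. The sums were not tested. Spry1, which did not pass, was the least abundant Sprouty. Dusp10, which did not pass either, was above Dusp5 in Control. Whether abundance bears on the calls was not tested.

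Ribosomes move by codons, so footprints of a translated ORF fall mostly in 1 reading frame. The deposited annotation gives the number of P-sites (positions of the ribosome's peptidyl site) per frame. Its headers name no library, so these numbers were taken as pooled over all libraries. Frame 0, the coding frame, held 87.2% of P-sites for Spry4 (849 of 974; 95% exact binomial interval 84.9% to 89.2%), 86.3% for Dusp5, 86.0% for Dusp6, 84.7% for Dusp4, 83.9% for Dusp1 and 83.2% for Spred2. The median over tested genes was 84.2%. Lower shares were found for Spry2 (79.0%), Dusp10 (78.9%) and Spred1 (77.1%). Spry1 was lowest, at 71.2% (302 of 424; interval 66.7% to 75.5%), with 88 P-sites in frame 1 and 34 in frame 2. These intervals cover counting error only.

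Of the 10 genes, Spry1 and Spry2 had a further ORF in the list, in both cases an upstream ORF that runs over the annotated start codon in another frame. Such ORFs are of interest because ribosomes that translate them pass the main start codon without using it. In Spry2 the upstream ORF encodes 33 residues, begins 43 nt before the annotated start and shares 59 of its 102 nt, stop codon included, with the coding sequence. In Spry1 it encodes 49 residues, begins 110 nt before the annotated start and shares 40 of its 150 nt. Frame 0 of the upstream ORF held 60 of 104 P-sites (57.7%; 95% exact binomial interval 47.6% to 67.3%) in Spry2 and 38 of 62 (61.3%; 48.1% to 73.4%) in Spry1. The frame of the annotated ORF held 38 of these P-sites (36.5%) in Spry2 and 10 (16.1%) in Spry1. In the overlap, footprints of both ORFs can be counted, and their assignment by the authors is not given in the sources used here.

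**Figure D4:**
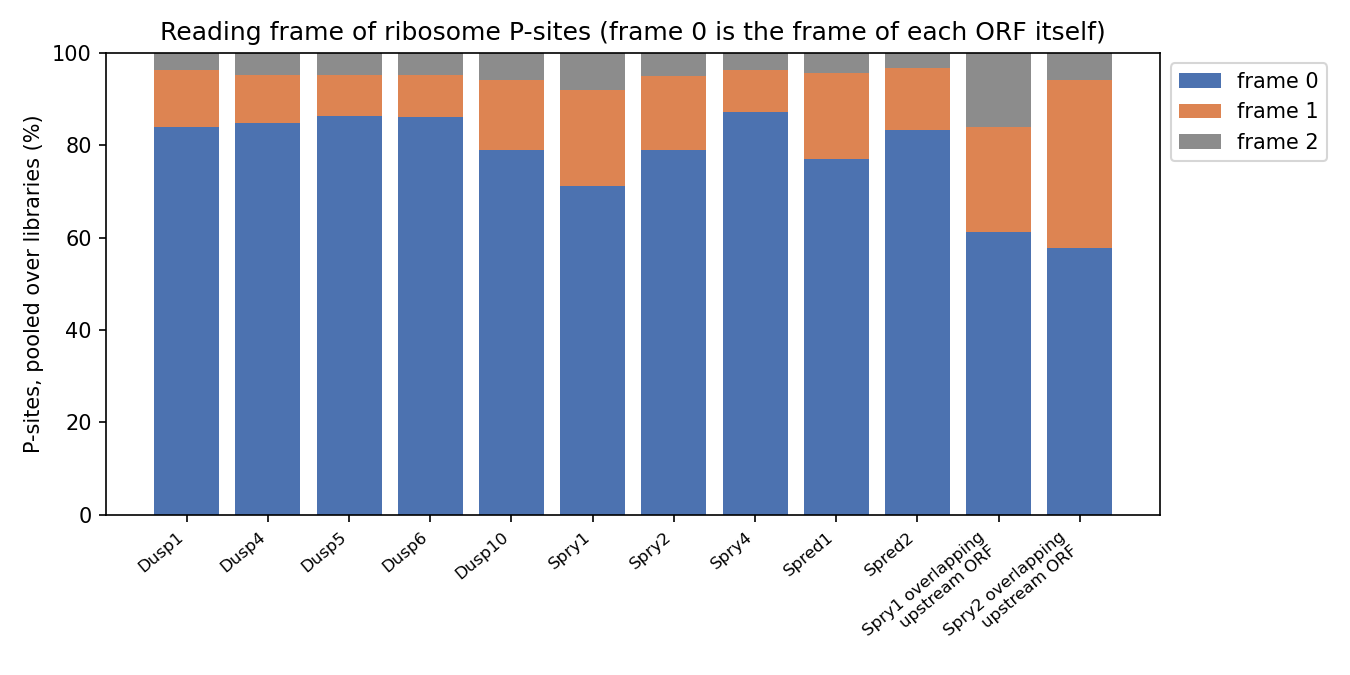
Share of P-sites in each reading frame (y axis, percent, taken as pooled over the 4 libraries) for the annotated ORF of the 10 genes and the overlapping upstream ORFs of Spry1 and Spry2. Frame 0 holds 71.2% to 87.2% in the annotated ORFs, lowest in Spry1, and 57.7% and 61.3% in the upstream ORFs.

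The Spry2 upstream ORF had 26 and 25 footprints in the Control libraries and 32 and 41 in the PE libraries. Both PE libraries were higher, as on the Spry2 coding sequence. Per nucleotide its density was 72.5% and 56.9% of that of the coding sequence in Control and 55.0% and 69.2% in PE. The log2 fold change of 0.59 ± 0.32 (SE; edgeR adjusted p = 0.15) did not pass. It differed from that of the coding sequence by -0.05 ± 0.34 (SE; edgeR interaction test within libraries, adjusted p = 0.97 over 921 pairs), with a 95% confidence interval from -0.75 to 0.65. Of those pairs 1.95% (18) were called, and 2 to 44 were called under other settings. The Spry1 upstream ORF had 9 and 9 footprints in Control and 15 and 5 in PE. It was too low for the main tests. With the lower minimum of 5 footprints on average its difference from the coding sequence was 0.23 ± 0.58 (SE; edgeR adjusted p = 0.91). At this depth neither ORF showed a detectable difference from its coding sequence. Footprints in the overlap can belong to either ORF, which can make the 2 counts alike. The comparison therefore cannot tell whether translation of the upstream ORF itself changed like that of the coding sequence.

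The other genes of the pathway were taken from 8 lists. Shares called in each list stand against 22.3% higher and 22.8% lower over all tested genes. The list closest to the genes above holds further dual-specificity and tyrosine phosphatases of MAP kinases with Spry3 and Spred3. Of its 16 genes 11 were tested, 2 rose (18.2%), 1 fell (9.09%) and 8 did not pass, with a median log2 fold change of -0.08. Dusp8, a phosphatase of JNK and p38, measured 4.56 and 4.13 CPM in Control and 11.0 and 10.4 CPM in PE. Its increase was 1.30 ± 0.18 on the log2 scale (SE; edgeR adjusted p = 4.9e-07). Its response in these low counts was of a size like that of Dusp4. Spred3 was the other that rose (1.62 ± 0.47, from 0.43 and 0.784 to 2.17 and 1.70 CPM; edgeR adjusted p = 0.0052), and is named after its values were seen, since its mean count was under 20. Ptpn7, a tyrosine phosphatase of ERK and p38, fell by 1.06 on the log2 scale (edgeR adjusted p = 0.022). Its levels were low, at 2.75 and 2.42 CPM in Control and 1.09 and 1.38 CPM in PE. The call of Ptpn7 was lost with DESeq2 and in most fits with 1 library left out.

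Of 33 tested genes of the ERK cascade, 8 rose, 2 fell and 23 did not pass (24.2% higher and 6.06% lower, median 0.13). The share higher was near the 22.3% over all tested genes, and the share lower was below their 22.8%. Mapk3 (ERK1), a kinase that the phosphatases act on, had a log2 fold change of 0.08 ± 0.07, and Braf, a kinase upstream of it, had 0.03 ± 0.10 (SE). Neither passed the test (edgeR adjusted p = 0.35 and 0.85). Map2k1, the kinase that phosphorylates ERK, rose by 0.61 ± 0.04 and its paralog Map2k2 had 0.13 ± 0.06 (edgeR adjusted p = 2.7e-13 and 0.091). Pea15, which binds ERK and holds it in the cytoplasm, rose by 1.22 ± 0.04, from 84.3 and 83.3 to 191 and 199 CPM, and the small GTPase Rras by 0.77 ± 0.06. The adaptor Gab1 fell by 0.43 and the ERK-activated kinase Rps6ka3 by 0.25.

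In the JNK and p38 cascades, 3 of 21 tested genes rose (14.3%) and 4 fell (19%), with a median of -0.00. Mapk14 (p38α) had 0.06 ± 0.06 and Mapk8 (JNK1) 0.17 ± 0.14 (SE), neither past the test. The stress-induced Gadd45g rose by 1.21, Mapkapk2, a kinase downstream of p38, by 0.35 and Taok1 by 0.28, while Map3k4 fell by 0.56, Map2k7 by 0.24 and Map3k1 by 1.18, the last with only 0.119 counts per P-site.

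Among the Ras GTPase activators, of which only neurofibromin is named above as bound by Spreds, 1 of 8 rose and 4 fell (12.5% and 50%, median -0.31). Nf1, which encodes neurofibromin, fell by 0.12 (edgeR adjusted p = 0.025), Rasa3 by 0.67 and Rasal2 by 0.50, while Rasa2 rose by 0.57. Of 8 tested partners of Sprouty and Spred, 2 rose and 2 fell (25% each), near the shares over all tested genes. Caveolin-1 (Cav1), which binds Sproutys at the membrane, fell by 1.08, from 84.4 and 87.4 to 38.3 and 42.8 CPM. It is also abundant in endothelial cells and fibroblasts, whose marker sums were lower in PE as given above. The part of those cells in the Cav1 values was not tested. The ubiquitin ligase Nedd4 fell by 0.11. The kinase Dyrk1a and the phosphatase scaffold Ppp2r1a rose by 0.19 and 0.06 (edgeR adjusted p = 0.0090 and 0.034). Neither increase was called with DESeq2, and only 1 partner was called higher with library totals alone.

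Growth factor receptors, whose signalling the Sproutys limit, were lower in 10 of 14 tested genes and higher in 1 (71.4% and 7.14%, median -0.44). Egfr fell by 0.78 on the log2 scale, from 212 CPM in both Control libraries to 126 and 121 CPM. Pdgfra and Pdgfrb fell by 0.47 and 0.28, and Fgfr2 was the receptor that rose (0.59). Pdgfra, Pdgfrb and Kdr of this list are also markers of fibroblasts, pericytes and endothelial cells, and the part of those cells was not tested.

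Of 24 tested genes known as outputs of ERK activity, 13 rose and 3 fell (54.2% and 12.5%, median 0.56), while 8 did not pass. Among those 8 were the early genes Egr1 and Egr2 (-0.06 ± 0.08 and 0.05 ± 0.19, SE), named after their values were seen. The ETS factor Etv5 (-0.08 ± 0.10) was another of the 8. Fos (1.21 ± 0.11), Myc (0.45 ± 0.07) and the ETS factor Etv4 (1.58 ± 0.20) were among the 13 that rose. These 4 genes too are named after their values were seen. The early genes Ier3 and Junb rose by 1.25 and 0.65, and the receptor Epha2 rose by 1.14, from 40.4 and 37.5 to 82.3 and 88.3 CPM. The decreases were of Epha4, which fell by 2.31, the ETS factor Etv1 (-0.34) and Srf, the factor that binds CArG boxes (-0.30). Of 13 other feedback inhibitors 6 rose and 1 fell (46.2% and 7.69%, median 0.12). Rgs2, which limits Gq signalling, rose by 1.82, Trib1 by 0.39 and Lrig1, an inhibitor of growth factor receptors, by 0.35. The one that fell was Il17rd, an inhibitor of fibroblast growth factor signalling, by 1.41 (edgeR adjusted p = 0.0098), from 1.98 and 2.00 to 0.585 and 0.893 CPM. It too is named after its values were seen, as its mean count was under 20. The call of Il17rd was lost with DESeq2 and in some fits with 1 library left out.

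**Figure D5:**
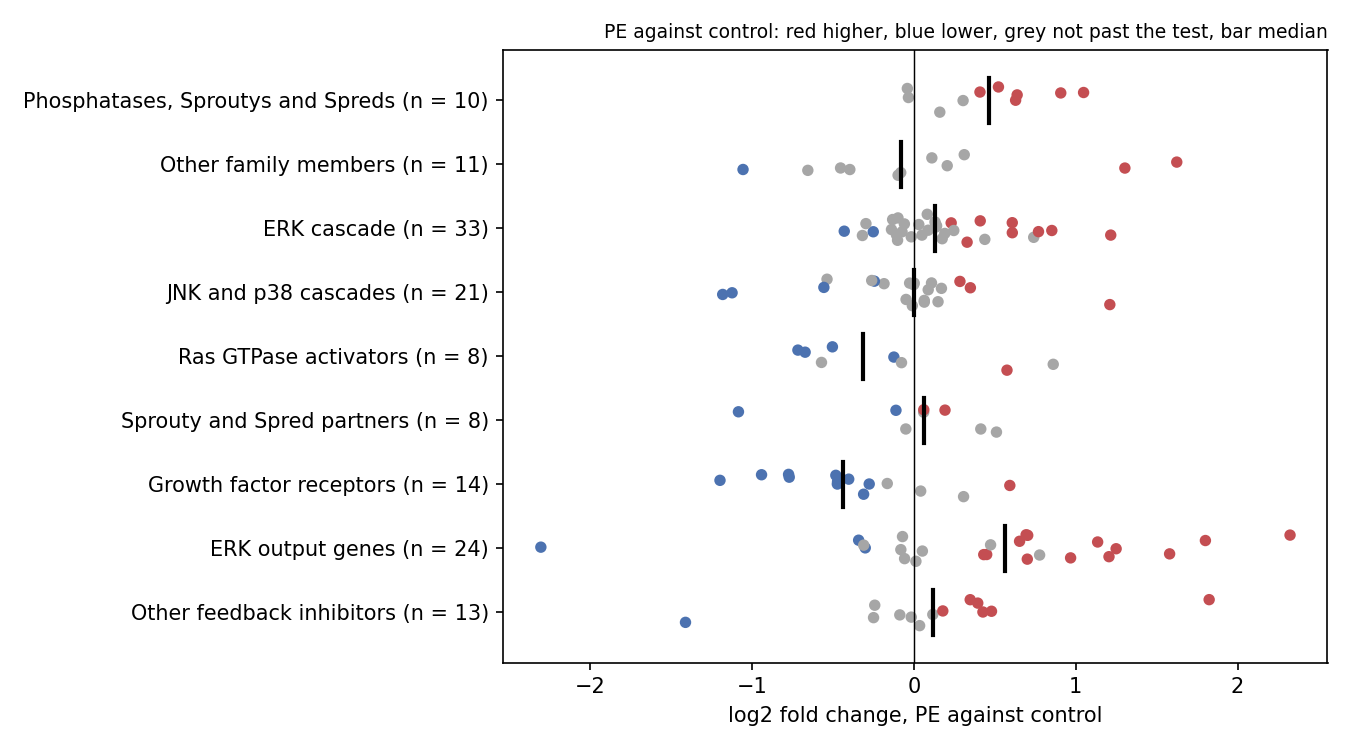
Log2 fold change of PE against Control (x axis) for each tested gene of the 10 phosphatases, Sproutys and Spreds and of 8 pathway lists (rows, with the number tested). Red points were called higher, blue lower and grey did not pass; vertical bars are medians, which are 0.46 for the 10 genes, 0.56 for ERK output genes and -0.44 for growth factor receptors.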

How the data were processed

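The genome build Rnor_6.0 and the tools STAR 2.4.2a, Bowtie 1.1.2 and cutadapt 2.0 are named in the submitters' processing notes. How ORFs were called and counted is not given in the sources used here. Deposited by the authors were unnormalized footprint counts for 18847 ORFs in 4 libraries. Per the file headers, an annotation table adds P-site counts per frame and the DESeq2 comparison made by the authors (log2 fold change, p-value, adjusted p-value). Coordinates run from start to stop, introns included. No per-sample column was left unused.

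Groups came from the sample titles. Low ORFs were removed by filterByExpr, and counts were scaled with TMM factors (0.982 to 1.02) and tested in R 4.3.3 with edgeR 4.0.16 (robust quasi-likelihood, PE against Control, no replicate term). Standard errors are the log2 fold change over the square root of F. Alternatives were DESeq2 1.42.0, other scalings, no filter, a replicate block, each library left out, removal of a trend with ORF length, a minimum of 0.5 counts per P-site and sums over annotated ORFs. Promoter windows were scanned for exact motif matches. Replicates differed by more than sampling noise (chi-square per degree of freedom 1.61 in Control, 1.60 in PE). The scripts were tested on simulated data. Other ORFs were compared with the annotated ORF of their gene by an edgeR interaction with a library term, for pairs with mean counts of at least 10. Intervals are 95%.

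The genes and lists were chosen with earlier results of these data known. Per list, up to 3 higher and 3 lower genes were named, those of smallest adjusted p whose groups did not overlap and whose mean count reached 20. The kinases Braf, Map2k1, Map2k2, Mapk3, Mapk8 and Mapk14 could always be named; some further genes of that rule are not reported here.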

Additional observations from a re-analysis of the deposited data

How the results depend on the processing

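Over 12 alternatives each, log2 fold changes ranged from 1.01 to 1.09 for Dusp4, 0.80 to 1.01 for Dusp6, 0.59 to 0.65 for Spry2, 0.58 to 0.66 for Spry4 and 0.48 to 0.55 for Dusp1, and these 5 kept their calls. Dusp5 ranged from 0.28 to 0.52 (adjusted p from 0.0017 to 0.16), Spred2 from 0.14 to 0.51, Spred1 from 0.06 to 0.27, Dusp10 from -0.18 to 0.09 and Spry1 from -0.26 to 0.15. The calls that changed are Dusp5 with DESeq2 and without PE replicate 2, and Spred2 without Control replicate 2; the cause was not tested. Leaving out 1 library gave 5 to 7 of the 10 genes called. DESeq2 called 3418 ORFs (1712 higher, 1706 lower) where edgeR called 5386 (2696 and 2690). The split between directions moved with the scaling: 2334 were higher and 3093 lower with library totals alone, and 2874 higher and 2294 lower with the ORF length trend removed. The replicate numbers of the titles share no stated source, and deviations of same-numbered libraries had a correlation of -0.00; with a replicate block 5447 ORFs and 6 of the 10 genes were called.

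The count of other ORFs that differed from their annotated ORF was 18. It was 36 at a mean count of at least 30, 4 at a mean count of at least 5, 44 without the library term, and 2 to 11 with 1 library left out. Small list counts moved too. In the ERK cascade 5 genes rose with DESeq2 or without Control replicate 1 (8 otherwise stated). For JNK and p38, 2 fell with DESeq2, without Control replicate 2 or without PE replicate 2 (4 stated). Of Ras GTPase activators 2 fell with DESeq2, without PE replicate 1 or with the length trend removed (4 stated), and 2 rose with that trend removed (1 stated). Of growth factor receptors 2 rose without PE replicate 1 or with the trend removed (1 stated). Of other phosphatases and Spreds 1 rose with DESeq2 (2 stated) and 0 fell with DESeq2 and without Control replicate 1, Control replicate 2 or PE replicate 1 (1 stated), but 2 fell without PE replicate 2. The 1 decrease among other feedback inhibitors was lost with DESeq2, without Control replicate 2 and without PE replicate 1. Increases among Sprouty partners numbered 0 to 1 with DESeq2, library totals or without Control replicate 1, PE replicate 1 or PE replicate 2 (2 stated), and 1 partner fell with the length trend removed (2 stated). Spry1 and Spred2 had the fewest footprints of the 10 genes and the largest standard errors (both 0.17).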
